A study of Homo sapiens with 4 samples.

Results

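The long-chain acyl-CoA synthetases are the 5 genes ACSL1, ACSL3, ACSL4, ACSL5 and ACSL6, and all 5 were found by symbol among the 23362 gene entries of the deposited expression table. The family was picked with its values known, and it was chosen by the FPKM of ACSL5, which was higher in WT than in the other libraries. That difference is therefore described here and was not tested. Poly(A) RNA was sequenced from MKN28 cells, a human gastric adenocarcinoma line, in 1 library for each of 4 groups. All 4 groups were stable lines carrying a tetracycline-inducible (tet-on) retroviral construct, selected with drugs after infection. Luc cells carried luciferase as the control, WT cells carried HA-tagged KIAA1324, a transmembrane protein studied as a tumor suppressor, 3NQ cells carried KIAA1324 with glutamine in place of asparagine at 3 N-glycosylation sites, and ΔTM cells carried KIAA1324 without its transmembrane domain. Whether doxycycline was given before RNA was taken is not stated in the sources used here. Expression is given as FPKM, the fragments per kilobase of transcript scaled to all mapped fragments of a library. KIAA1324 itself was listed at 11185 FPKM in WT, 8197 in 3NQ and 2.86 in Luc, but at 0 in ΔTM. That value goes against the ΔTM label, although a listed 0 can be a failed estimate, and the sample is called the ΔTM-labelled library throughout. Where 4 values follow each other below, they stand for Luc, WT, 3NQ and the ΔTM-labelled library in this order.

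With 1 library per group, no difference had a replicate check, no p-value was computed, and the depth of each library is unknown because the table holds no counts. Summed FPKM ran from 560540 to 585104 over the 4 libraries, and 11297 to 11406 entries reached an FPKM of 1. All 8 epithelial markers had an FPKM of at least 1, with summed FPKM from 8205 (WT) to 13943 (Luc). The data are from bulk RNA, in which fewer cells of a type and less RNA per cell cannot be told apart.

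Long-chain acyl-CoA synthetases join a long-chain fatty acid to coenzyme A at the cost of ATP, the step that a fatty acid must pass before it is oxidized, stored in a glycerolipid, built into a membrane or used to modify a protein. The family members sit on different membranes and prefer different fatty acids. ACSL1 is known for fatty acid oxidation and triglyceride synthesis in fat, liver and muscle. ACSL3 is found on the endoplasmic reticulum and on lipid droplets, and ACSL4 prefers arachidonate and other polyunsaturated fatty acids and is known for its part in ferroptosis. ACSL5 is found on mitochondria and the endoplasmic reticulum and is abundant in the intestinal epithelium, and ACSL6 is known mainly from brain.

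In these gastric cancer cells ACSL3 was the most abundant member and ACSL6 was close to 0. ACSL3 had FPKM values of 195 (Luc), 173 (WT), 186 (3NQ) and 171 (ΔTM-labelled), and only 1.86% to 2.22% of all listed genes were higher in the same library. ACSL1 had FPKM values of 44.0, 39.3, 39.1 and 49.3, and was highest in the ΔTM-labelled library. ACSL4 had 26.0, 23.6, 23.0 and 21.2 FPKM, and was highest in Luc. Both were in the upper range of the listed genes, with 9.84% to 12.8% of genes above ACSL1 and 18.4% to 20.7% above ACSL4. ACSL5 stood at 8.94 FPKM in WT, against 3.22 in Luc, 3.21 in 3NQ and 3.66 in the ΔTM-labelled library. The WT library lay well above the other 3, which were close to each other. The share of listed genes above ACSL5 was 33.3% in WT and 41.0% to 42.4% elsewhere. The listed genes include many below 1 FPKM, so each share given here is smaller than among expressed genes. In Luc, ACSL5 ranked 9846 from the highest, where 11406 entries reached an FPKM of 1. In WT it ranked 7722, where 11354 entries did. ACSL6 had FPKM values of 0.176, 0.144, 0.202 and 0.112, so it stayed below the minimum of 1 in every library and was left out of the ratios. The order of levels was ACSL3, ACSL1, ACSL4, ACSL5 and ACSL6 in all 4 libraries, and the ranges of neighbouring members did not overlap.

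**Figure D1:**
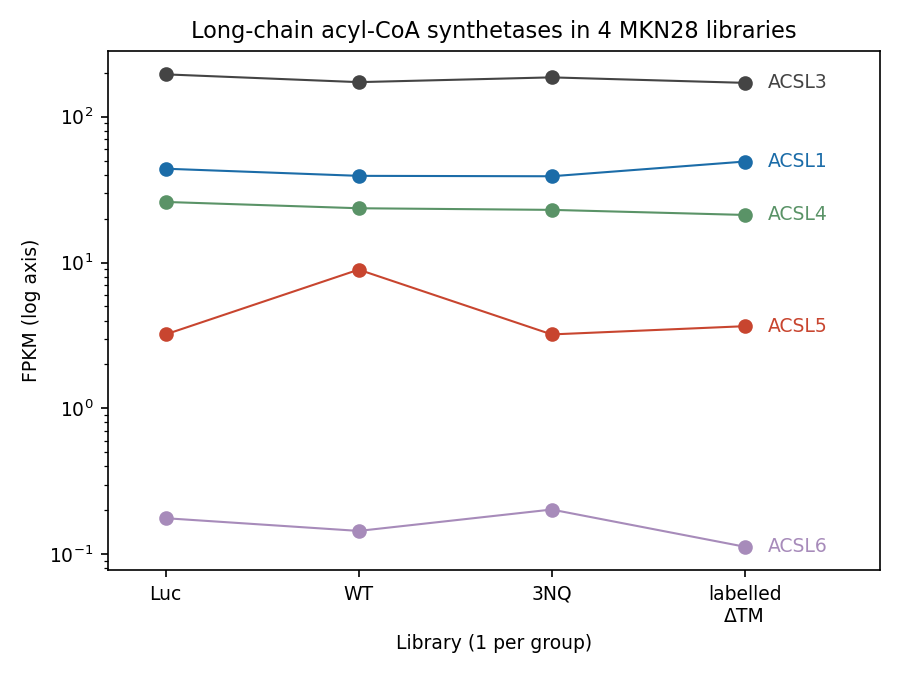
FPKM of the 5 long-chain acyl-CoA synthetases (log axis) in each of the 4 MKN28 libraries, with 1 point per gene and library and lines that only join the points of a gene. ACSL5 is at 8.94 in WT and between 3.21 and 3.66 in the other libraries, while ACSL3 stays between 171 and 195, and no lines cross.

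The sequences upstream of the RefSeq starts differed between the members. ACSL5 has a pair of RefSeq starts, on the plus strand of chromosome 10, and both lie within the gene as deposited (GRCh37, chr10:114133776-114188138), 1250 and 2187 bases from its edge. The windows of 250 bases before these starts held 3 and 2 CpG dinucleotides, and 22.9% and 14.7% of all 35116 RefSeq windows held fewer. The window of ACSL3, on chromosome 2, held 35 CpG, that of ACSL4, on chromosome X, held 42, and that of the outermost ACSL1 start, on chromosome 4, held 41, where the median of all windows was 11. GC content was 50.0% and 48.8% for ACSL5, against 75.2% for ACSL3, 77.2% for ACSL4 and 83.6% for that ACSL1 start. These starts of ACSL3, ACSL4 and ACSL1 lie 102, 146 and 850 bases inside their deposited edges, nearer than those of ACSL5. No window at the deposited edge of ACSL5 was examined, so RefSeq starts are compared here and not the edges of the genes. The stretches below are the parts of the windows outside annotated exons, 5′ to 3′ on the strand of the gene with every CpG in capitals, and they are shown to set the member that differed between libraries beside the most abundant member.
ACSL5 start 1, chr10:114134776-114134992, plus strand: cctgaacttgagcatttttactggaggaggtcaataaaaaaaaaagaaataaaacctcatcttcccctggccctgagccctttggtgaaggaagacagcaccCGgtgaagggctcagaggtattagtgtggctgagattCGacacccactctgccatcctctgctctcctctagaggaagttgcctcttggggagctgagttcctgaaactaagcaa
ACSL5 start 2, chr10:114135713-114135955, plus strand: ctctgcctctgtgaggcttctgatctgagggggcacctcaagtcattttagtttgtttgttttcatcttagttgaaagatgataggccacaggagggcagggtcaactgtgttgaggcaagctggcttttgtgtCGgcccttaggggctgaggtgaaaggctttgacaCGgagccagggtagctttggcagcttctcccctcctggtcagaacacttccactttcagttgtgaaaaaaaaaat
ACSL3 start 1, chr2:223725504-223725659, plus strand: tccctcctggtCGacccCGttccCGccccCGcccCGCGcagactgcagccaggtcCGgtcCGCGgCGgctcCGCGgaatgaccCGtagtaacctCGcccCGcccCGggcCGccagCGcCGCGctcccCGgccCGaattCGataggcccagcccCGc

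The ACSL3 stretch of 156 bases held 24 CpG, against 2 in each ACSL5 stretch of 217 and 243 bases. Both ACSL5 stretches lie inside the annotated gene but outside its annotated exons, whereas the ACSL3 stretch lies before the GENCODE v44 gene, its last bases falling within the deposited model. ACSL1 and ACSL6 also have starts of low CpG content, with 4 to 6 CpG at the 4 inner ACSL1 starts and 2 to 31 CpG over the 7 starts of ACSL6. The outermost ACSL6 start held 5 CpG at a GC content of 51.6%, so an outermost RefSeq start of low CpG content is not particular to ACSL5. The FPKM gives 1 value per gene, so which start was used is not known.

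**Figure D2:**
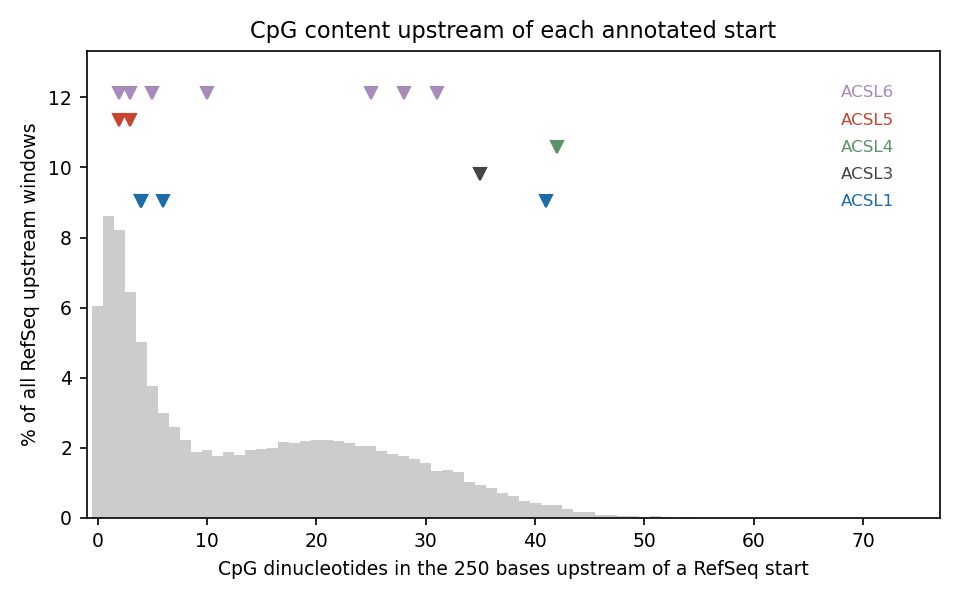
Number of CpG dinucleotides in the 250 bases upstream of each RefSeq start of the 5 members (triangles, 1 row of colour per gene, row height has no meaning) over the distribution of all 35116 RefSeq windows (grey bars, percent of windows). The ACSL5 starts lie at 2 and 3 CpG, while ACSL3, ACSL4 and the outermost ACSL1 start lie at 35, 42 and 41. The ACSL6 starts lie at 2 to 31 CpG, the outermost of them at 5.

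A search of both strands of the 250-base windows for 8 short motifs found none in either ACSL5 window. With starts numbered from the outermost, starts 2 and 4 of ACSL1 and starts 1, 2, 3 and 7 of ACSL6 also held none. The lack of matches is therefore not particular to ACSL5. The motifs were the AP-1 site TGANTCA (in 6.57% of all windows), the cyclic AMP element TGACGTCA (1.65%), the E-box CACGTG (6.34%), the GC box GGGCGG (42.6%), CCAAT (32.0%), TATAAA (10.7%), the sterol regulatory element that SREBP binds (0.125%) and the direct repeat that PPAR binds (0.0171%). The GC box occurred 6 times in the outermost ACSL1 window and 3 times each in the ACSL3 and ACSL4 windows, and CCAAT occurred 1 time in the ACSL3 window. ACSL1 start 3 held 1 AP-1 site, and ACSL1 start 5 held 1 GC box and 1 CCAAT. The GC box also occurred at ACSL6 starts 4, 5 and 6. A match or its absence describes these letters only.

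To ask which members differed with the KIAA1324 construct, log2 ratios to Luc were computed with a pseudocount of 1 over the 11769 entries that reached 1 FPKM in any library, and a gene was called at a difference of at least 1.5-fold. ACSL5 was the member called in WT, and no member was called in 3NQ or in the ΔTM-labelled library. In WT, 3.36% of all tested entries were called higher and 3.34% lower, so the 1 call among the 4 tested members is the value that the family was chosen for and is read no further. Entries called in either direction made up 4.34% for 3NQ and 3.11% for the ΔTM-labelled library. Over all tested entries the median ratios were -0.0049 (WT), -0.038 (3NQ) and -0.060 (ΔTM-labelled). The 3 comparisons share the Luc library.

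ACSL5 in WT was 2.78 times its FPKM in Luc, or 178% higher, and the log2 ratio with the pseudocount, which understates changes of low genes, was 1.24. It ranked 37 from the highest ratio of the 11769 entries. Its log2 ratio was -0.00066 in 3NQ, with a sign that turned under 3 of the 4 rescalings of the libraries, and 0.14 in the ΔTM-labelled library, where its FPKM was 13.8% above Luc. Set against the mutants in place of Luc, ACSL5 in WT had a log2 ratio of 1.24 to 3NQ, where it ranked 24 from the highest and 2.89% of entries were called higher. Its ratio to the ΔTM-labelled library was 1.09, where it ranked 69 and 4.25% of entries were called higher. ACSL5 was thus higher in WT than in each of the other 3 libraries. Of all tested entries, 2.39% were called higher than Luc in WT and in neither of the other libraries, which is the pattern used to choose this family.

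ACSL1, ACSL3 and ACSL4 lay within 1.5-fold of Luc in every library, as did 89.5% of all tested entries. ACSL3 had log2 ratios to Luc of -0.18 (WT), -0.068 (3NQ) and -0.19 (ΔTM-labelled). ACSL4 had -0.14, -0.17 and -0.28 in the same order, the last of them an FPKM difference of -18.5%. Both genes were therefore highest in Luc, though the differences were small beside the 1.5-fold threshold. ACSL1 had log2 ratios of -0.16 (WT), -0.17 (3NQ) and 0.16 (ΔTM-labelled). It was the tested member whose highest value lay in the ΔTM-labelled library, with a log2 ratio of -0.33 in 3NQ relative to that library. The signs of the ratios of ACSL1, ACSL3 and ACSL4 to Luc were kept under all 4 rescalings.

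**Figure D3:**
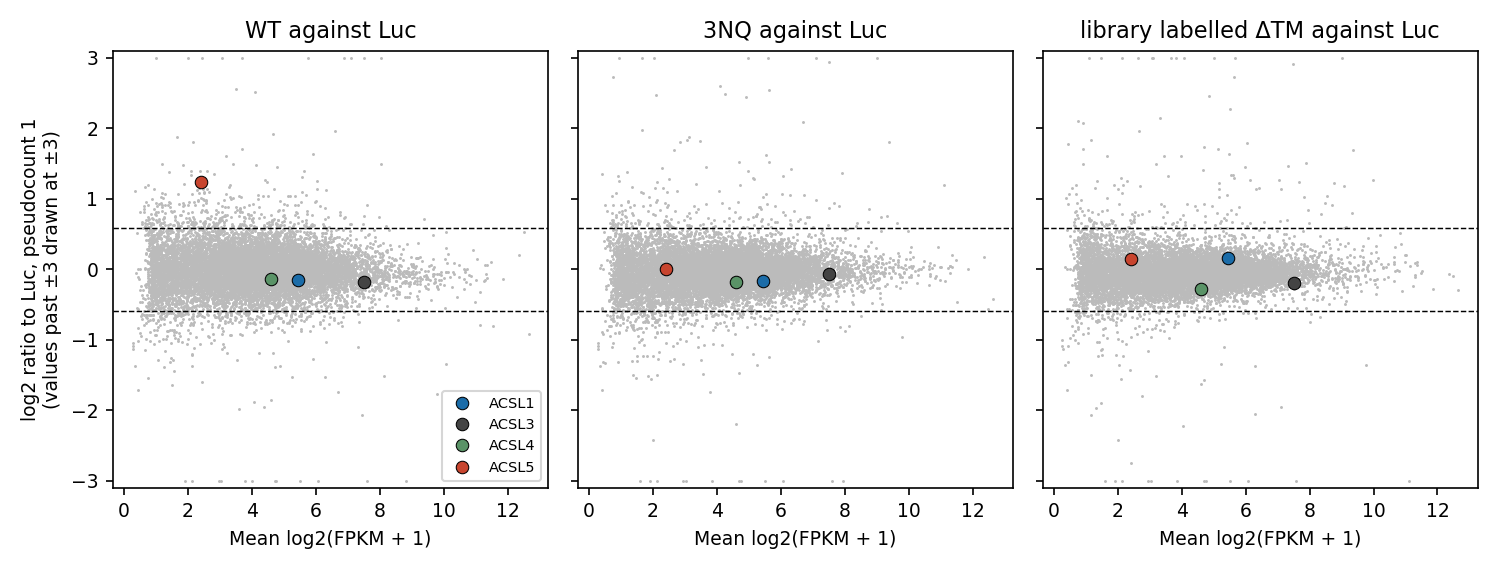
Log2 ratio to Luc (pseudocount 1) against mean log2(FPKM + 1) over the 4 libraries for all 11769 tested entries (grey) and the 4 tested members (colours), with 1 panel per comparison and dashed lines at 1.5-fold. In WT, ACSL5 lies at 1.24, above the upper line, while all other points of the family lie between the lines.

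FPKM is scaled per length, so the members could be summed. The family total was 269, 245, 252 and 245 FPKM. It was thus highest in Luc, by a small margin, and the difference of WT to Luc was -8.93% although ACSL5 was 5.72 FPKM higher there. ACSL3 alone differed by -22.5 FPKM in WT and so outweighed ACSL5. Without ACSL5 the differences to Luc were -11.2% (WT), -6.41% (3NQ) and -9.08% (ΔTM-labelled). These differences have no replicate check.

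ACSL5 made up 3.65% of the family FPKM in WT, against 1.20% in Luc, 1.28% in 3NQ and 1.49% in the ΔTM-labelled library. ACSL3 made up 72.7%, 70.6%, 74.0% and 69.7%, and remained the main member in each library. ACSL1 made up 16.4%, 16.1% and 15.5% in Luc, WT and 3NQ and 20.1% in the ΔTM-labelled library. Among the members other than ACSL3, ACSL5 made up 12.4% in WT and 4.38% to 4.93% in the other libraries. The higher ACSL5 shares in WT restate the value that the family was chosen for.

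**Figure D4:**
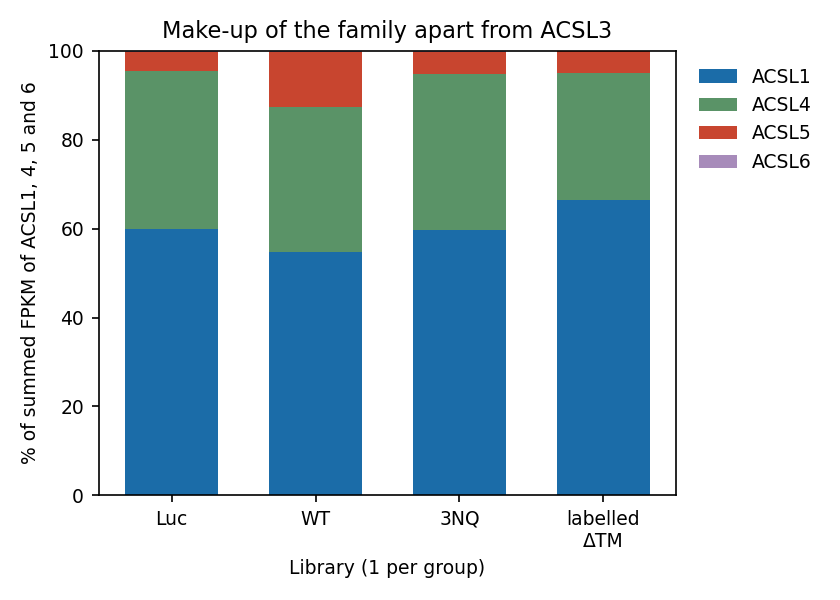
Share of ACSL1, ACSL4, ACSL5 and ACSL6 in their summed FPKM (percent, ACSL3 left out) in each library, stacked to 100%. ACSL5 takes 12.4% in WT and 4.38% to 4.93% in the other libraries, ACSL1 takes 66.4% in the ΔTM-labelled library, and ACSL6 is too small to be seen.

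Ratios of members within a library do not depend on how the libraries are scaled. The ratio of ACSL3 to ACSL5 was 60.7, 19.3, 57.9 and 46.7. The ratio of ACSL1 to ACSL5 was 13.7, 4.40, 12.2 and 13.5, and that of ACSL4 to ACSL5 was 8.10, 2.64, 7.15 and 5.80. Each of these ratios was lowest in WT, and its highest value was 3.07 to 3.14 times the lowest. All of them divide by ACSL5, the gene the family was chosen for, so their low values in WT restate that choice. The ratio of ACSL3 to ACSL4 was the steadiest, at 7.50, 7.33, 8.11 and 8.05, with a highest value 1.11 times the lowest. The ratio of ACSL1 to ACSL4 was 1.67 to 1.70 in Luc, WT and 3NQ and 2.32 in the ΔTM-labelled library.

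The nearest expressed gene to ACSL5 was not higher in WT. ZDHHC6, a palmitoyltransferase gene on the opposite strand, had FPKM values of 32.2, 28.3, 34.0 and 29.0, with a log2 ratio of -0.18 in WT. In the deposited gene models it starts 1.92 kb past the end of ACSL5, but in GENCODE v44 on GRCh37 it runs from 114184186 to 114207330 and overlaps the ACSL5 end. An antisense lncRNA that GENCODE v44 places over ACSL5 was not analysed here. Strand is not stated for the read counting, so reads from overlapping genes on opposite strands cannot be told apart. On the other side, the pseudogene GUCY2GP lies 17.4 kb away and was listed at 0 in all libraries, in a table made with non-coding regions masked.

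The deposited models place the other members on GRCh37 at chr4:185676749-185747972 (ACSL1, minus strand), chr2:223725652-223809357 (ACSL3, plus strand), chrX:108872579-108976632 (ACSL4, minus strand) and chr5:131142683-131347936 (ACSL6, minus strand). Most of their neighbours were listed at or near 0, namely RP11-701P16.5, RP11-701P16.1 and RP11-701P16.2 at ACSL1, MOGAT1 and KCNE4 at ACSL3, KCNE1L and RP1-136J15.3 at ACSL4, and IL3 and AC034228.7 at ACSL6. Non-coding regions were masked by the authors, and a widely used gene such as ELOVL5 was also listed at 0 in Luc and WT, so these zeros are not read as levels. MLF1IP, a centromere protein gene 21.5 kb from ACSL1, had a log2 ratio of -0.33 in WT, and TMEM164, 269 kb from ACSL4, had 0.25. FNIP1, the gene of a folliculin partner 9.97 kb from ACSL6, was the neighbour called in WT, with FPKM values of 10.2, 17.7, 12.9 and 10.1. Of all tested entries, 3.36% were called higher in WT. The deposited ACSL6 model spans 205 kb and covers a GENCODE v44 gene that runs on past ACSL6 on the same strand, so its FPKM refers to the longer model.

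The genes with patterns most like ACSL5 were sought by the Euclidean distance between log2(FPKM + 1) values centred over the 4 libraries, among 9386 genes that reached 5 FPKM in any library. The nearest were GPNMB (distance 0.0929), CBLB (0.129), MRPL55 (0.180), FBXO32 (0.204) and HIST1H2AC (0.248). GPNMB, a glycoprotein of lysosomes and melanosomes, had FPKM values of 14.9, 37.2, 16.2 and 17.7. CBLB, a ubiquitin ligase, had 3.31, 8.95, 3.64 and 3.56, and like ACSL5 it reached 5 FPKM in WT alone. MRPL55, a mitochondrial ribosomal protein gene, had 18.7, 52.7, 21.9 and 22.3. FBXO32, a ubiquitin ligase subunit known from muscle atrophy, had 15.5 in WT and 6.17 to 6.90 elsewhere, and the histone gene HIST1H2AC had 36.8 in WT and 15.0 to 20.6 elsewhere. That they were highest in WT follows from how they were picked. Likeness rests on only 4 libraries, and the 5 genes with the highest Pearson correlation to ACSL5 shared 0 with these 5.

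Lists of lipid genes show what lay around the family in the same libraries. Over 10 of the lists, which together name the steps from fatty acid uptake to its use and its regulators, 127 genes were tested, and 4 were called higher and 6 lower in WT, beside 3.36% and 3.34% of all tested entries. For 3NQ, 2 were higher and 4 lower, where 1.77% and 2.57% of all entries were called. For the ΔTM-labelled library, 1 was higher and 1 lower, where 1.54% and 1.57% were called. The 127 genes had median log2 ratios of -0.059 (WT), -0.097 (3NQ) and -0.055 (ΔTM-labelled). Over all tested entries the medians were -0.0049, -0.038 and -0.060 in the same order, and these are also the background for the list medians below.

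The other acyl-CoA synthetases held no called gene in any library. Of the 20 listed, 12 were tested, with median log2 ratios of -0.061 (WT), 0.036 (3NQ) and 0.022 (ΔTM-labelled). The shares of all tested entries called are small, so a count of 0 among 12 genes is near the background. SLC27A4, a very-long-chain synthetase chosen after its values were seen, had the highest ratio of the list in WT, 0.47, from 33.1 FPKM in Luc to 46.2 FPKM. Thioesterases and acyl-CoA binding proteins cleave or carry the products of these enzymes. Of 11 tested, 2 were called higher in WT, beside 3.36% of all tested entries, and none in the other libraries. That count fell to 1 with a pseudocount of 5 and to 0 at 2-fold, so it is read no further. ACBD3, a Golgi protein with an acyl-CoA binding domain, went from 22.7 FPKM in Luc to 37.5 FPKM in WT. ACOT11, a thioesterase, went from 3.79 to 6.58.

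Upstream of the family, fatty acid uptake and binding genes were mostly below the minimum, with 1 of 10 tested and none called. The tested gene, FABP5, a fatty acid binding protein, had FPKM values of 15.1, 11.8, 17.1 and 11.3. Of 18 tested genes of fatty acid synthesis, elongation and desaturation, 1 was called lower in WT, beside 3.34% of all tested entries. FADS1, the delta-5 desaturase that makes arachidonate, had FPKM values of 17.1, 9.71, 13.5 and 18.1. SCD and ELOVL6 were called lower in 3NQ and FADS2 higher in the ΔTM-labelled library, and these 3 genes are named after their values were seen. The list medians were -0.19 (WT), -0.17 (3NQ) and -0.041 (ΔTM-labelled).

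Downstream, none of 18 tested genes of mitochondrial beta-oxidation was called in any library. Of the 18, the number below Luc was 15 (WT), 14 (3NQ) and 12 (ΔTM-labelled), beside 50.9%, 57.0% and 63.0% of all tested entries, and the medians were -0.11 (WT), -0.11 (3NQ) and -0.050 (ΔTM-labelled). Of 14 tested peroxisomal genes, only PECR, a reductase of fatty acid chain elongation, was called. Of all tested entries, 3.34% (WT), 2.57% (3NQ) and 1.57% (ΔTM-labelled) were called lower. PECR had FPKM values of 9.72, 4.53, 3.41 and 5.15, and so was lower in all 3 libraries than in Luc. Glycerolipid synthesis held no called gene among 13 tested, with medians of 0.10 (WT), -0.061 (3NQ) and -0.12 (ΔTM-labelled). Of 8 tested lipid droplet and lipolysis genes, BSCL2, which codes for seipin, was called lower in WT, at FPKM values of 15.0, 8.08, 11.8 and 19.3. MGLL, monoglyceride lipase, is named after its values were seen and was called higher in 3NQ, at FPKM values of 65.0, 97.5, 281 and 61.1.

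ACSL4 acts in phospholipid remodelling and peroxidation. Of 16 tested genes of this list, 1 was called higher and 1 lower in WT, beside 3.36% and 3.34% of all tested entries. LPCAT1, a lysophosphatidylcholine acyltransferase, went from 44.8 FPKM in Luc to 71.2 FPKM in WT. PLA2G6, a phospholipase, went from 2.04 to 0.993. SLC7A11, a cystine transporter named after its values were seen, was the gene of this list called in 3NQ, at 19.4 against 11.5 in Luc.

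Among 16 tested transcriptional regulators of lipid metabolism, 1 was called higher and 2 lower in WT, beside 3.36% and 3.34% of all tested entries. INSIG1, which holds back sterol-regulated transcription factors, had FPKM values of 54.2, 26.2, 22.9 and 40.5, and so was lowest in 3NQ and next lowest in WT. NR1H3, the liver X receptor alpha gene, went from 13.6 in Luc to 8.54 in WT. HNF4G, a nuclear receptor gene of the gut, went from 0.399 in Luc to 1.13 in WT and passed the minimum through WT alone, so its call is no support for a difference of the list or of the 127 genes.

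Target genes of PPAR, the lipid-activated nuclear receptors, held no called gene among 7 tested, with medians of -0.065 (WT), -0.13 (3NQ) and -0.10 (ΔTM-labelled). Target genes of SREBP, the sterol-regulated factors, had 2 of 13 called lower in WT (INSIG1 and FADS1) and 5 called lower in 3NQ, beside 3.34% and 2.57% of all tested entries. The latter were INSIG1, SCD, ELOVL6 and the cholesterol synthesis genes HMGCS1 and LSS, of which those not called in WT are named after their values were seen. At 2-fold, the count called lower fell to 1 in WT and to 1 in 3NQ, and the other alternatives gave 4 to 6 in 3NQ. In the ΔTM-labelled library 1 of the 13, FADS2, was called higher, beside 1.54% of all tested entries, and none lower. These 13 genes had medians of -0.30 (WT), -0.52 (3NQ) and -0.086 (ΔTM-labelled).

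**Figure D5:**
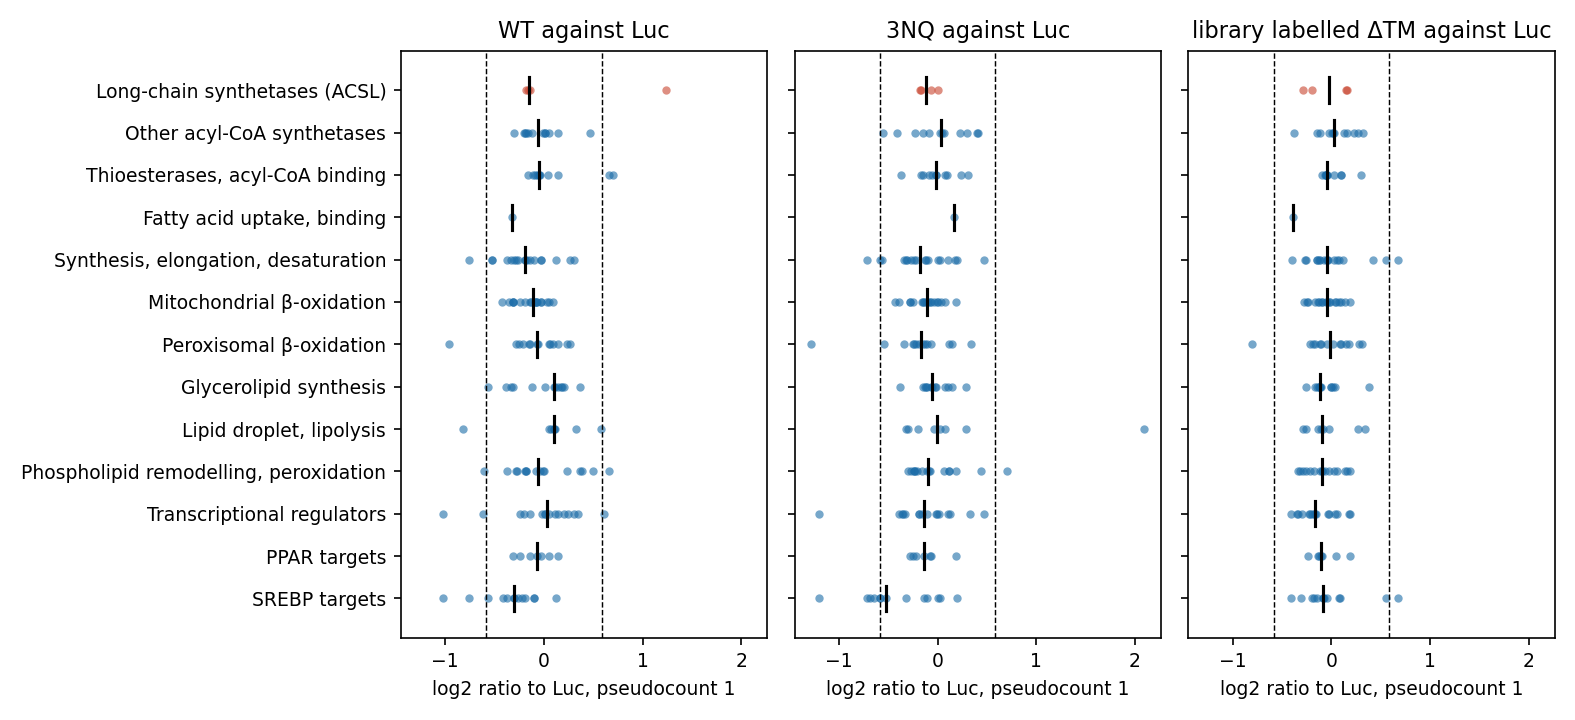
Log2 ratio to Luc (pseudocount 1) of each tested gene of the family and of 12 lipid lists (1 dot per gene), with the list median as a black bar and dashed lines at 1.5-fold, in 1 panel per comparison. In WT the ACSL5 dot, at 1.24, is farther to the right than any dot of the other lists, and the SREBP target median is at -0.30 in WT and -0.52 in 3NQ.

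ACSL5 and ACSL6 are known from intestine and brain, so markers of these and other cells were read beside them. Of 12 enterocyte markers, only CDX2 reached an FPKM of 1, with values of 1.40, 1.96, 0.832 and 0.953. VIL1, FABP2 and SI were listed at 0 in all libraries, and these zeros are not read as levels. All 12 summed to 1.53, 2.06, 1.09 and 1.31 FPKM, most of it from CDX2, which lay near the minimum. The sum was highest in WT, as was ACSL5, at a level below that of ACSL5 itself, and its part in the result was not tested. Of 8 neuron markers, 4 reached an FPKM of 1, with summed FPKM of 49.3, 58.3, 50.0 and 54.7. Of these 4, TUBB3 (20.1 to 32.0 FPKM) and GAD1 were above Luc in WT while SYT1 (15.9 to 12.4) and MAP2 were below. TUBB3 was the 1 called, beside 3.36% of all tested entries called higher in WT. No hepatocyte or endothelial marker reached an FPKM of 1. Among fibroblast and immune markers 1 each did, COL1A1 and CD68, and their summed FPKM ranged from 13.3 to 15.8 and from 4.63 to 5.95. The epithelial keratin genes KRT8 and KRT18 were called lower in WT, 2 of the 8 tested epithelial markers, beside 3.34% of all tested entries. They carried most of the summed epithelial markers. The other 6 epithelial markers summed to 1758, 1581, 1581 and 1650 FPKM, so that WT and 3NQ had the same sum without these keratins. The part of the keratin difference in the ACSL5 value was not tested.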

How the data were processed

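The authors enriched poly(A) RNA, made libraries with a TruSeq RNA kit, sequenced on a HiSeq2500, mapped reads to GRCh37 with TopHat and deposited an FPKM per gene from Cufflinks (version 2.1.1), with non-coding regions masked and corrections for multi-mapped reads and fragment bias. These FPKM are scaled for library size and length; no counts were used, so depth is unknown. Strand of the counting is not given in the sources used here.

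From the FPKM, log2((FPKM + 1)/(Luc FPKM + 1)) was computed for entries that reached 1 FPKM in any library and called at 1.5-fold (Python 3.11.15, numpy 2.4.6, pandas 2.3.3, matplotlib 3.10.9). Of 166 entries repeating a symbol, lists used the one with the higher mean. The calls were also run on simulated data with an assumed noise, in which only genes of higher FPKM in Luc than ACSL5 were changed. That run therefore cannot judge the call of ACSL5 or of other low genes. Named genes were the members, the 2 highest and 2 lowest ratios in WT among genes of each lipid list called in WT, the 5 genes most like ACSL5, neighbours and overlapping genes, and KIAA1324; others are said to be chosen after their values were seen, and keratin and other markers come from marker lists. Members and lists were chosen with earlier results of these data known, and lists were written from general knowledge. RefSeq upstream sequences (table build GRCh38.p14, 5 of 5 members matched, 16 windows) were sought in GRCh37 in and around the deposited gene, on its strand. Each was found once there, without mismatch, which gave the coordinates. The rest of the genome was not searched. Alternatives were other pseudocounts, thresholds, filters, rescalings, treatment of repeated symbols and control libraries. Some genes of the uptake and SREBP target lists are not reported here, and these lists were counted without them.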

Additional observations from a re-analysis of the deposited data

How the results depend on the processing

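The log2 ratio of ACSL5 in WT to Luc ranged from 0.76 (pseudocount 5) to 1.45 (pseudocount 0.1) over 10 alternatives. It was called in all 13, which include a 2-fold threshold and 3 other controls. The family was chosen because ACSL5 was higher in WT than in every other library, so these calls restate that choice and add no support. ACSL5 passed the filter of 5 FPKM through WT alone. The number of members called was the same under every alternative run. Signs turned for small ratios only. For ACSL5 in 3NQ the ratio became 0.033 after rescaling by the median of ratios, 0.021 by the upper quartile and 0.017 by summed FPKM without KIAA1324 and the 10 most abundant genes. With 3NQ as the control, WT had 0.0093 for ACSL1 and 0.035 for ACSL4, and with the ΔTM-labelled library 0.016 for ACSL3 and 0.15 for ACSL4. Against the mean of both, ACSL4 had 0.090. Counts of called lipid genes moved most. In WT the higher count was 2 with a pseudocount of 5 and 0 at 2-fold, and the lower count 1 at 2-fold. In 3NQ the higher count was 5 with a pseudocount of 0.1, 1 with 5 and 1 at 2-fold, and the lower count 8 with 0.1 and 2 at 2-fold. In the ΔTM-labelled library the higher count was 3 with 0.1, 0 with 5, 0 at 2-fold and 2 after each of the first 2 rescalings named above, and the lower count 2 with 0.1, 0 with 5 and 0 at 2-fold. The cause was not tested. No paired analysis was possible because each group holds 1 library, and no replicate could be left out. Depth is unknown, so the counting error behind ACSL5, ACSL6 and other low values could not be given.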
